A study of Mus musculus with 18 samples.

Results

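These 9 genes are described here across sorted mouse islet cells. They cover the uptake of glucose, its entry into glycolysis, the K-ATP channel, and a small group of metabolic genes that mature beta cells keep low. They were chosen by name from the 55487 gene identifiers that each library listed: Slc2a1, Slc2a2, Hk1, G6pc2, Abcc8, Kcnj11, Ldha, Slc16a1 and Pdk4. All 9 were among the 17338 genes with enough counts to be tested. The study compared alpha, beta and delta cells from pancreatic islets of 12-week-old male C57BL/6 mice. Whole islets were cultured for 20 h in the absence (control) or presence of interferon gamma (IFNγ) at 5 ng/mL and only afterwards dissociated and sorted. Among Epcam-positive cells lacking CD45, TER119 and CD31, alpha cells were gated as low for CD24 without CD71, beta cells as low for CD24 with CD71, and delta cells as high for CD24. Each of the 6 groups held 3 libraries, 18 in all. Every n is an independent biological sample according to the study. Beta control 3 carries the word papain in its deposited name where the other beta libraries carry CD71, and how it was prepared is unknown here.

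Beta cells release insulin when glucose is metabolised. Glucose enters through facilitative transporters, is phosphorylated, and passes down glycolysis into mitochondrial pyruvate oxidation. The ATP that results closes the K-ATP channel, the membrane depolarises, and calcium entry triggers secretion. Alpha and delta cells, which release glucagon and somatostatin, carry the same channel. Some housekeeping metabolic genes are kept very low in beta cells and are called disallowed, because their products would let pyruvate, lactate or low glucose act on secretion.

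Levels are given in a pair of units. Levels between genes are given as TPM, RSEM's estimate of transcript abundance, which corrects for transcript length. Levels of 1 gene between libraries are given as CPM, the read counts divided by library size, scaled by the trimmed mean of M values, since ribosomal RNA took between 5.00% and 36.7% of a library and TPM shares that total. A gene was called different when its adjusted p by the quasi-likelihood test of edgeR was under 0.05. In sorted bulk RNA, fewer cells of a type and less RNA per cell cannot be told apart.

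Library totals ranged from 6128845 to 11531734 expected counts. The hormone of the labelled cell type was high in every library: Gcg averaged 94789 CPM in control alpha cells, Ins2 28161 CPM in control beta cells and Sst 28469 CPM in control delta cells. With IFNγ, Gcg averaged 91739 CPM in alpha and Ins2 25763 CPM in beta cells. Sst stood at 9561, 14003 and 14819 CPM in delta IFNγ 1, 2 and 3. In delta controls 1, 2 and 3 it stood at 35919, 34772 and 14715 CPM. Libraries of different types were not free of each other's transcripts. The 7 beta cell markers summed to 3074, 11489 and 1558 CPM in alpha controls 1, 2 and 3, against 52744 to 58803 CPM in beta controls, with none of the 7 at 0 across the alpha controls. In alpha IFNγ 1, 2 and 3 these markers summed to 853, 2889 and 4027 CPM. In delta controls they summed to between 5030 and 7317 CPM, nearly all of it Iapp (4868 to 7186 CPM). The 7 alpha cell markers summed to 128, 316 and 2403 CPM in delta controls 1, 2 and 3. Acinar markers summed to between 1344 and 2754 CPM in delta controls, 1989 CPM in beta control 1 and at most 93.7 CPM in the other beta and alpha controls. Immune markers reached at most 4.62 CPM. Alpha control 2, delta control 3 and beta control 3 are the libraries to which several results below refer, and values without these 3 are given where they change a call.

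Windows of 200 bases before a transcription start were read from RefSeq (GRCm38.p6) for the 7 members listed there. Abcc8 and Kcnj11 are named only. Shown are 1 window each of Slc2a2 and G6pc2, which had the largest differences in favour of beta cells, of Pdk4, which had the largest in favour of alpha cells, and of Ldha, the member highest in delta cells. Capitals mark ACGTG on either strand, the core of the hypoxia response element, which also lies inside the CACGTG E-box.
Slc2a2: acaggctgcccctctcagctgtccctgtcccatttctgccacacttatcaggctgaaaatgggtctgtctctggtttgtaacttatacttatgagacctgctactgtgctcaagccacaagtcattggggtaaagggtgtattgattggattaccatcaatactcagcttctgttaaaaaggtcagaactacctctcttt
G6pc2: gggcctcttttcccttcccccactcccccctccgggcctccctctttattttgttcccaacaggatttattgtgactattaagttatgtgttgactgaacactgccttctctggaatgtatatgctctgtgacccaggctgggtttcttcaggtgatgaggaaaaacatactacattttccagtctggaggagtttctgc
Pdk4: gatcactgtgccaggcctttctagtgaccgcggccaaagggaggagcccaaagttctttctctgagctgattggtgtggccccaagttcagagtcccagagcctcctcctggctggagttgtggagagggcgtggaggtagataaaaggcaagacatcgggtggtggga
Ldha: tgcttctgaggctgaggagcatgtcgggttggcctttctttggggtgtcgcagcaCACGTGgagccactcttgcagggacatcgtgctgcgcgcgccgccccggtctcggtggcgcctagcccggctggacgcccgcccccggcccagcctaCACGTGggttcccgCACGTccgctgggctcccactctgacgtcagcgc
These lie at chr3:28697703-28697902 on the plus strand (Slc2a2), chr2:69210873-69211072 on the plus strand (G6pc2), chr6:5496310-5496478 on the minus strand (Pdk4, cut to 169 bases where an annotated exon begins) and chr7:46845604-46845803 on the plus strand (Ldha). The Ldha window precedes a RefSeq start that lies inside the annotated gene, which begins at 46841475. The Slc2a2 window had a G+C content of 45.0% and 0 CG pairs, and that of G6pc2 47.5% and 1 CG pair. The Ldha window shown had 70.0% and 21 CG pairs, the other Ldha window listed (46846882 to 46847081) had 56.0% and 9, Slc2a1 had 69.0% and 11, and Slc16a1 had 77.5% and 30, against medians of 53.0% and 5 over 32817 windows of the same length. ACGTG occurred in 3 separate places of the Ldha window shown, of which 2 read CACGTG, and 4579 of all windows held it at least once. It occurred in 1 place each in the windows of Slc2a1 and Slc16a1 and in the second G6pc2 window, and not in the second Ldha window, the first G6pc2 window or any window of Slc2a2, Hk1 and Pdk4. No member window held TATAAA (held by 3269 windows) or TAATTA (1226 windows). A match or its absence describes these letters alone.

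In control cells the 9 genes spread over several orders of magnitude, and the order of their levels differed between cell types. In beta cells, G6pc2 came first with 317 ± 89.3 TPM (SD, n = 3, as for all means here), followed by Abcc8 with 130 ± 16.3 TPM, Slc2a2 with 46.5 ± 35.3 TPM and Kcnj11 with 39.4 ± 3.41 TPM. Slc2a1 at 2.77 ± 0.423 TPM, Ldha at 1.54 ± 1.07 TPM and Pdk4 at 0.783 ± 0.781 TPM lay far below, and Hk1 at 0.080 ± 0.069 TPM and Slc16a1 at 0.023 ± 0.006 TPM were lowest. The ranges of Slc2a2 (21.8 to 87.0 TPM) and Kcnj11 (36.8 to 43.3 TPM) overlapped, so their order is within the spread, and so is that of Ldha and Pdk4. In alpha cells the first places went to Abcc8 (163 ± 29.6 TPM), Kcnj11 (45.6 ± 9.11 TPM), Pdk4 (41.8 ± 3.84 TPM) and G6pc2 (31.4 ± 23.7 TPM). The last 3 of these overlapped in range. In delta cells Abcc8 (177 ± 68.0 TPM) and Kcnj11 (41.9 ± 16.5 TPM) were followed by Ldha (7.34 ± 2.05 TPM), and the other 6 members averaged at most 2.57 TPM.

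**Figure D1:**
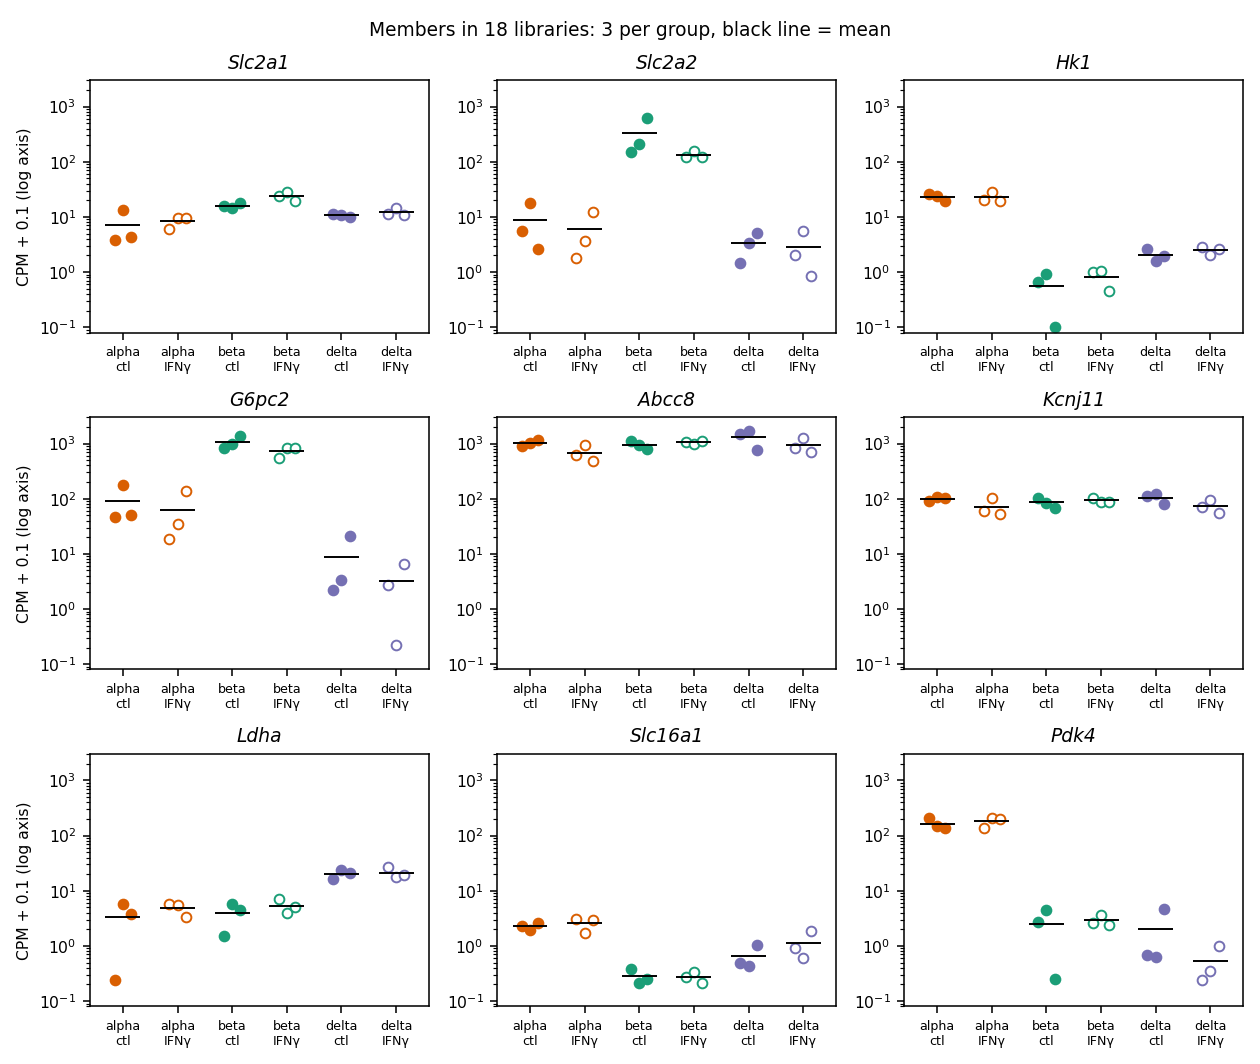
Scaled CPM plus 0.1 on a log axis for the 9 genes, with 1 point per library, filled for control and open for IFNγ, and a black line at the mean of the 3 libraries of a group. Slc2a2 and G6pc2 were highest in beta cells, Hk1, Slc16a1 and Pdk4 in alpha cells and Ldha in delta cells, while Abcc8 and Kcnj11 lay at similar levels throughout.

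Slc2a2 encodes GLUT2, the high-capacity transporter of mouse beta cells (chromosome 3, 28697903 to 28731359, plus strand, GRCm38). It stood at 150, 210 and 625 CPM in beta controls 1, 2 and 3, at 5.52, 18.1 and 2.57 CPM in alpha controls and at 1.34, 3.24 and 5.09 CPM in delta controls. Every beta control was above every alpha and delta control, and beta control 3 held more than either of the other beta controls by far. The log2 fold change was -5.25 ± 0.81 (SE) in alpha against beta cells (adjusted p = 0.000131) and -6.67 ± 0.88 in delta against beta cells (adjusted p = 1.63e-05). Alpha and delta cells overlapped and did not pass the test against each other (-1.43, 95% interval -3.10 to 0.24, adjusted p = 0.218). Beta control 3 also stood apart in Mafa, a beta cell transcription factor (157, 182 and 489 CPM in beta controls 1, 2 and 3), and in 9 dissociation and immediate early genes (261, 397 and 1266 CPM in sum), and their part in the result was not tested. Without the 3 libraries named above the differences from beta cells were -5.51 and -6.31. Deposited names carry dates whose meaning is not given, and 2 of these are shared by an alpha and a beta control. Within these pairs the log2 difference of alpha from beta cells was -4.71 and -3.52, and in the 1 pair of a delta and a beta control it was -5.31.

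Slc2a1 encodes GLUT1, the transporter of most other tissues (chromosome 4, 119108711 to 119137983, plus strand). Its levels were 15.4, 14.2 and 17.5 CPM in beta controls, 10.974, 10.8 and 9.76 CPM in delta controls and 3.78, 13.2 and 4.17 CPM in alpha controls. Beta controls lay above all others, and alpha control 2 lay well above the other alpha controls. Slc2a1 was lower in alpha than in beta cells (log2 fold change -1.15 ± 0.36, adjusted p = 0.0294). This call was lost when alpha control 1 or 3 or beta control 1, 2 or 3 was left out (adjusted p between 0.0501 and 0.155) and with the date as a term (adjusted p = 0.101). Within the pairs that share a date it was -1.96 and -0.10. Without the 3 libraries named above the difference was -1.89 (adjusted p = 0.000619). Delta cells did not pass the test against beta cells (-0.57, 95% interval -1.31 to 0.16), and exceeded alpha cells by 0.58 (adjusted p = 0.27), or by 1.40 without alpha control 2 (adjusted p = 0.00231).

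Because both transporters are measured in the same library, their TPM can be set against each other. Slc2a1 made up 9.59%, 9.26% and 3.19% of the summed TPM of Slc2a1 and Slc2a2 in beta controls, 46.1%, 50.3% and 53.1% in alpha controls, and 93.1%, 86.8% and 72.6% in delta controls. The 3 cell types did not overlap in this share. With 3 against 3 libraries the exact two-sided permutation test gave p = 0.1 for each pair of cell types, the smallest it can give, over 24 such tests on shares in all. On the TPM scale, GLUT2 transcripts thus prevailed in beta controls and GLUT1 transcripts in delta controls. Alpha controls held them in about equal parts by TPM, at low levels of both. Without the length correction, the counts of Slc2a1 and Slc2a2 were 26 and 38, 99 and 135, and 39 and 24 in alpha controls 1, 2 and 3. The part of beta cell transcripts in the Slc2a2 level of alpha controls was not tested.

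Of 12 tested genes in a list of other glucose transporters and hexokinases, 2 were higher and 2 lower in alpha than in beta cells, and 2 were higher and 3 lower in delta than in beta cells, with list medians of 0.20 and 1.11 on the log2 scale beside 0.04 and 0.05 for all genes, of which 19.7% and 20.5% were called. Slc2a3, which encodes the high-affinity transporter GLUT3, averaged 33.4 ± 2.22 CPM in alpha, 11.5 ± 0.75 CPM in delta and 0.762 ± 0.675 CPM in beta controls (alpha against beta 5.36 ± 0.43, adjusted p = 1.58e-07). Slc2a5, the fructose transporter GLUT5, went the other way with 155 ± 3.61 CPM in beta against 86.6 ± 14.5 CPM in alpha controls (adjusted p = 0.00386). Slc2a13, a proton-coupled myo-inositol carrier, also was lower in alpha than in beta cells (-1.29 ± 0.29, adjusted p = 0.00327). Slc2a10, which encodes GLUT10, averaged 6.06 ± 3.34 CPM in delta against 0.293 ± 0.253 CPM in beta controls (4.23 ± 0.67, adjusted p = 0.000118).

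**Figure D2:**
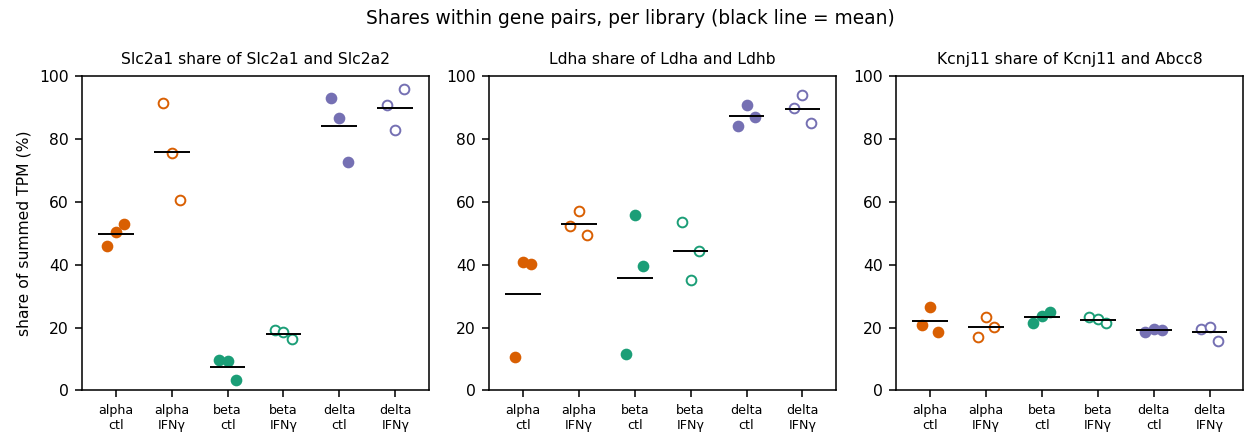
Share of summed TPM in percent per library for Slc2a1 among both GLUT genes, Ldha among both lactate dehydrogenase genes and Kcnj11 among both K-ATP subunits, filled for control and open for IFNγ, with the mean as a black line. The Slc2a1 share separates beta (at most 9.59%), alpha (46.1% to 53.1%) and delta controls (at least 72.6%), while the Kcnj11 share lies between 15.6% and 26.6% in all libraries.

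At the phosphorylation step, Hk1 was higher and G6pc2 lower in alpha and delta cells than in beta cells, and both were lower in delta than in alpha cells. Hk1 encodes hexokinase 1, which has a high affinity for glucose and is listed among the disallowed genes of beta cells (chromosome 10, 62268855 to 62379908, minus strand). It stood at 26.2, 24.0 and 19.023 CPM in alpha controls, at 2.48, 1.51 and 1.87 CPM in delta controls and at 0.570, 0.820 and 0 CPM in beta controls. The beta values rest on 4, 7 and 0 reads. Cell types did not overlap, with alpha highest, delta between and beta lowest. Hk1 was 45.8-fold higher in alpha than in beta cells (log2 fold change 5.52 ± 0.48, adjusted p = 3.36e-07) and 11.7-fold lower in delta than in alpha cells (-3.54 ± 0.40, adjusted p = 3.52e-06). In delta against beta cells the log2 fold change was 1.98 ± 0.52 (adjusted p = 0.0103). This call was lost without the 3 libraries named above (1.495, adjusted p = 0.0605). With the date as a term, where only delta control 3 stands for the delta controls, the difference was 1.48. Within a date, alpha exceeded beta controls by 5.05 and 4.53, and delta exceeded beta controls by 1.00. Hk2, Hk3 and Hkdc1, the other hexokinase genes measured here, averaged at most 1.66 CPM in controls, and Hk1 made up 97.1 ± 1.14% of the summed TPM of the 4 in alpha controls.

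G6pc2 encodes the islet glucose-6-phosphatase catalytic subunit, which returns glucose-6-phosphate to glucose and so opposes the phosphorylation step (chromosome 2, 69211073 to 69227841, plus strand). Beta controls held 822, 960 and 1365 CPM, alpha controls 45.5, 176 and 49.8 CPM, and delta controls 2.10, 3.24 and 21.1 CPM. The 3 cell types did not overlap, and the highest alpha and delta values belonged to alpha control 2 and delta control 3. G6pc2 was 11.6-fold lower in alpha than in beta cells (-3.54 ± 0.87, adjusted p = 0.00669) and 119-fold lower in delta than in beta cells (-6.90 ± 1.03, adjusted p = 6.50e-05). The latter difference was -8.62 without delta control 3 and -8.38 without the 3 libraries named above, and the former -4.23 without these 3. Delta cells were lower than alpha cells by -3.36 ± 0.89 (adjusted p = 0.0114). That last call was lost without delta control 2 (adjusted p = 0.0533) or alpha control 2 (adjusted p = 0.07), and held without the 3 libraries named above (-4.16, adjusted p = 0.00575). Within a date, alpha lay below beta controls by -4.17 and -2.44 and delta below beta controls by -5.50.

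Beside G6pc2, the list of glucose-6-phosphatase system and gluconeogenesis genes had 7 tested members, of which 4 were lower and 0 higher in delta than in alpha cells (median -1.40, all genes 0.03), where 19.7% of all genes were called. Fbp1, the gluconeogenic fructose-1,6-bisphosphatase, averaged 97.1 ± 16.2 CPM in alpha, 12.97 ± 1.49 CPM in delta and 2.40 ± 2.11 CPM in beta controls (alpha against beta 5.28 ± 0.50, adjusted p = 7.24e-07). Pcx, the pyruvate carboxylase that feeds mitochondrial oxaloacetate, was highest in beta cells with 129 ± 14.3 CPM against 28.8 ± 8.59 CPM in alpha and 9.34 ± 3.26 CPM in delta controls (delta against beta -3.79 ± 0.37, adjusted p = 4.07e-07). Slc37a4, which carries glucose-6-phosphate into the endoplasmic reticulum where G6pc2 acts, fell from 36.4 ± 2.03 CPM in beta to 9.78 ± 2.29 CPM in delta controls (adjusted p = 9.75e-05). Of 17 tested glycolysis genes, 9 were lower and 0 higher in delta than in beta cells and 5 lower and 1 higher in alpha than in beta cells, with medians of -0.65 and -0.55, where 20.5% and 19.7% of all genes were called. Among them, Gapdh, Eno1 and Pgk1 averaged 424 ± 88.2, 252 ± 44.4 and 149 ± 45.2 CPM in beta controls and 206 ± 55.1, 101 ± 16.4 and 69.7 ± 13.4 CPM in delta controls. Pfkfb2, which makes and breaks down the phosphofructokinase activator fructose-2,6-bisphosphate, averaged 115 ± 33.2 CPM in beta and 37.2 ± 2.30 CPM in delta controls (-1.63 ± 0.20, adjusted p = 7.66e-06).

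The K-ATP channel was the part of the pathway in which the cell types differed least. Abcc8 encodes SUR1, its regulatory subunit, which sulfonylureas bind (chromosome 7, 46104523 to 46180033, minus strand), and Kcnj11 encodes Kir6.2, its pore (46093953 to 46100764, same strand). The genes lie 3758 bases apart. Abcc8 stood at 915, 1007 and 1135 CPM in alpha, 1107, 929 and 800 CPM in beta, and 1518, 1695 and 767 CPM in delta controls. Kcnj11 stood at 88.9, 107 and 102 CPM in alpha, 104, 84.2 and 68.8 CPM in beta, and 110, 119 and 78.4 CPM in delta controls. All 3 cell types overlapped for both genes, and delta control 3 lay below the other delta controls in each. Neither gene passed the test in any of the 3 comparisons: the 95% intervals of the log2 fold change ran from -0.51 to 0.73, from -0.13 to 1.11 and from -0.24 to 1.00 for Abcc8, and from -0.32 to 0.74, from -0.27 to 0.79 and from -0.48 to 0.57 for Kcnj11 (alpha against beta, delta against beta, delta against alpha). Within a date, the alpha and beta controls differed by -0.27 and 0.12 for Abcc8 and by -0.23 and 0.35 for Kcnj11.

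Libraries differed in how genes of low and high G+C content were represented: the median deviation in log2 CPM of the genes lowest in G+C content minus that of the genes highest in it was 0.858 in delta control 3 against -0.102 and -0.058 in the other delta controls, and both K-ATP genes have a G+C content of about 57% (57.3% and 57.1%). With an offset for G+C content, both passed the test as higher in delta cells, Abcc8 by 0.61 against beta and 0.76 against alpha cells (adjusted p = 0.0117 and 0.00331) and Kcnj11 by 0.43 and 0.45 (adjusted p = 0.0174 and 0.0156). With the date as a term both were instead slightly lower in delta cells. Among the delta controls only delta control 3 shares a date with another library, so that fit rests on it for the delta side. No direction is given for them.

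Abcc8 and Kcnj11 followed each other over the libraries, with a Pearson r of 0.889 on log2 CPM over all 18, which share depth and composition within a library. On the length-corrected scale Kcnj11 made up 22.0 ± 4.16% of the summed TPM of both subunits in alpha, 23.3 ± 1.71% in beta and 19.1 ± 0.480% in delta controls. The delta and beta shares did not overlap (exact two-sided permutation p = 0.1). Abcc8 overlaps the antisense gene Gm45486 and, on its own strand, Gm45487, with up to 520 and 262 counts in a library, so a part of its reads has an uncertain source. Of 9 tested genes of a list of other K-ATP subunits and excitation genes, 3 were higher and 5 lower in delta than in beta cells, where 20.5% of all genes were called. Trpm5, a calcium-activated cation channel, averaged 68.8 ± 1.75 CPM in beta against 7.13 ± 6.37 CPM in alpha and 2.60 ± 0.283 CPM in delta controls. Scn3a, a voltage-gated sodium channel, ran the other way with 29.1 ± 1.04, 74.3 ± 3.96 and 192 ± 20.3 CPM in beta, alpha and delta controls.

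The disallowed genes were low in beta cells. Among control cells Ldha was highest in delta cells, while Slc16a1 and Pdk4, like Hk1, were highest in alpha cells. Ldha encodes the lactate dehydrogenase subunit that favours lactate formation (chromosome 7, 46841475 to 46855627, plus strand). It stood at 16.5, 23.8 and 20.9 CPM in delta controls, at 1.42, 5.74 and 4.41 CPM in beta controls and at 0.145, 5.75 and 3.74 CPM in alpha controls, with 1 read in alpha control 1. Every delta control exceeded every alpha and beta control, while alpha and beta controls overlapped. Ldha was higher in delta than in beta cells by a log2 fold change of 2.39 ± 0.57 (adjusted p = 0.00516) and than in alpha cells by 2.64 ± 0.58 (adjusted p = 0.00297). It did not pass the test in alpha against beta cells (-0.26, 95% interval -1.51 to 1.00). With the date as a term, only delta control 3 stands for the delta controls, and the differences were 2.32 and 2.53. No call is read from that fit. In the 1 pair of a delta and a beta control that shares a date, delta exceeded beta by 1.82. Delta controls also carried the acinar transcripts described above, and their part in the Ldha level was not tested.

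The partner subunit Ldhb, which favours lactate use, was lower in delta than in beta cells (2.13 ± 0.301 against 5.84 ± 1.93 CPM, log2 fold change -1.44 ± 0.44, adjusted p = 0.0255). Ldha made up 84.1%, 90.7% and 86.9% of the summed TPM of Ldha and Ldhb in delta controls, against 11.6%, 55.8% and 39.7% in beta and 10.5%, 40.9% and 40.3% in alpha controls. The delta shares lay above all others (exact two-sided permutation p = 0.1 against each, the smallest possible).

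Slc16a1 encodes MCT1, the proton-coupled carrier of lactate and pyruvate, and is a disallowed gene of beta cells (chromosome 3, 104638668 to 104658462, plus strand). It was the least abundant member, with 0.285, 0.117 and 0.152 CPM in beta controls from 2, 1 and 1 reads, 0.382, 0.324 and 0.934 CPM in delta controls and 2.18, 1.87 and 2.46 CPM in alpha controls. Cell types did not overlap. Slc16a1 was 11.1-fold higher in alpha than in beta cells (3.48 ± 0.69, adjusted p = 0.00122) and lower in delta than in alpha cells (-1.97 ± 0.57, adjusted p = 0.0216). In delta against beta cells the difference of 1.51 did not pass (95% interval -0.03 to 3.06, adjusted p = 0.165), and at 4 reads in all beta controls a smaller one was not detectable at this depth. The delta against alpha call was lost without delta control 1 or 2 or alpha control 1 or 3 (adjusted p between 0.0553 and 0.0871). With the date as a term, where only delta control 3 stands for the delta controls, that difference was -1.28. Within a date, alpha exceeded beta controls by 2.23 and 2.60.

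Delta cells had another monocarboxylate carrier in abundance. Slc16a7, which encodes MCT2, a carrier with a high affinity for pyruvate and lactate, averaged 96.1 ± 19.5 CPM in delta, 2.91 ± 1.23 CPM in alpha and 0.224 ± 0.067 CPM in beta controls (delta against beta 8.65 ± 0.45, adjusted p = 1.55e-09). Slc16a6, a carrier of ketone bodies and taurine, was also highest in delta cells (39.3 ± 3.07 CPM against 18.9 ± 4.62 in beta and 6.80 ± 2.62 in alpha controls). Over the 8 tested genes of lactate and monocarboxylate handling, 2 were higher and 1 lower in each of the 3 comparisons, where 19.7% to 20.5% of all genes were called. Slc16a11, another member of the carrier family, was higher in alpha than in beta cells (10.9 ± 3.70 against 2.99 ± 0.815 CPM, adjusted p = 0.0136). So the delta libraries combined the highest Ldha with the highest Slc16a7, and the alpha libraries the highest Slc16a1 at a far lower level.

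Pdk4 encodes pyruvate dehydrogenase kinase 4, which switches off pyruvate oxidation in fasting and other states of fatty acid use (chromosome 6, 5483351 to 5496309, minus strand). It stood at 205, 151 and 137 CPM in alpha controls, at 2.56, 4.45 and 0.152 CPM in beta controls and at 0.573, 0.541 and 4.57 CPM in delta controls. Alpha controls lay far above the rest, and beta and delta controls overlapped. Pdk4 was 65.9-fold higher in alpha than in beta cells (6.04 ± 0.66, adjusted p = 3.39e-06) and 86.6-fold lower in delta than in alpha cells (-6.44 ± 0.67, adjusted p = 1.45e-06), the largest differences of the 9 genes in these comparisons. Without the 3 libraries named above the difference of delta from alpha cells was -8.23. Within a date, alpha exceeded beta controls by 6.20 and 5.01. Delta and beta cells did not pass the test (-0.40, 95% interval -1.87 to 1.08). Without the 3 libraries named above, Pdk4 was lower in delta than in beta cells (-2.64, adjusted p = 0.00278). Pdk1, another kinase of the family, averaged 39.1 ± 5.02 CPM in alpha and 43.6 ± 6.07 CPM in beta controls, and was lower in delta cells (18.1 ± 4.63 CPM, adjusted p = 0.00024 against beta). Among 13 tested genes of pyruvate entry into mitochondria, 0 were higher and 2 lower in alpha than in beta cells, where 19.7% of all genes were called. Of 12 fatty acid and PPAR-responsive genes, 0 were higher and 1, Pparg, was lower in alpha than in beta cells (1.83 ± 2.04 against 20.3 ± 4.12 CPM, adjusted p = 0.000337), beside the same 19.7% of all genes.

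Of 12 tested other genes known as low in beta cells, 8 were higher and 1 lower in delta than in beta cells (median 1.16) and 3 were higher and 1 lower in alpha than in beta cells (median 0.56), where 20.5% and 19.7% of all genes were called. Oat, ornithine aminotransferase, averaged 40.1 ± 11.6 CPM in alpha, 6.82 ± 0.475 CPM in delta and 2.33 ± 1.17 CPM in beta controls. Igfbp4, a binding protein of insulin-like growth factors, averaged 9.61 ± 3.44 CPM in alpha against 0.243 ± 0.305 CPM in beta controls (5.11 ± 0.80, adjusted p = 0.000218). Nfib, a transcription factor, was higher in delta cells, at 29.2 ± 10.9 CPM against 0.726 ± 0.883 CPM in beta and 0.555 ± 0.214 CPM in alpha controls. Cat, catalase, was lower in alpha cells, with 0.816 ± 0.523 CPM against 7.87 ± 3.43 CPM in beta controls (adjusted p = 5.51e-05). Of 10 tested hypoxia response genes, 0 were higher and 4 lower in delta than in beta cells, where 20.5% of all genes were called.

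Counted over the list, 6 of the 9 genes passed the test in alpha against beta cells, with Hk1, Slc16a1 and Pdk4 higher and Slc2a1, Slc2a2 and G6pc2 lower, where 19.7% of all genes tested were called. The 3 comparisons share their control libraries. In delta against beta cells 4 of 9 passed (Hk1 and Ldha higher, Slc2a2 and G6pc2 lower), against 20.5% of all genes. In delta against alpha cells 5 of 9 passed (Ldha higher, Hk1, G6pc2, Slc16a1 and Pdk4 lower), against 19.7% of all genes. Groups did not overlap for 6, 6 and 5 members, where 40.4%, 37.2% and 41.5% of all genes did not overlap. Without the 3 libraries named above the counts were 6, 4 and 6.

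**Figure D3:**
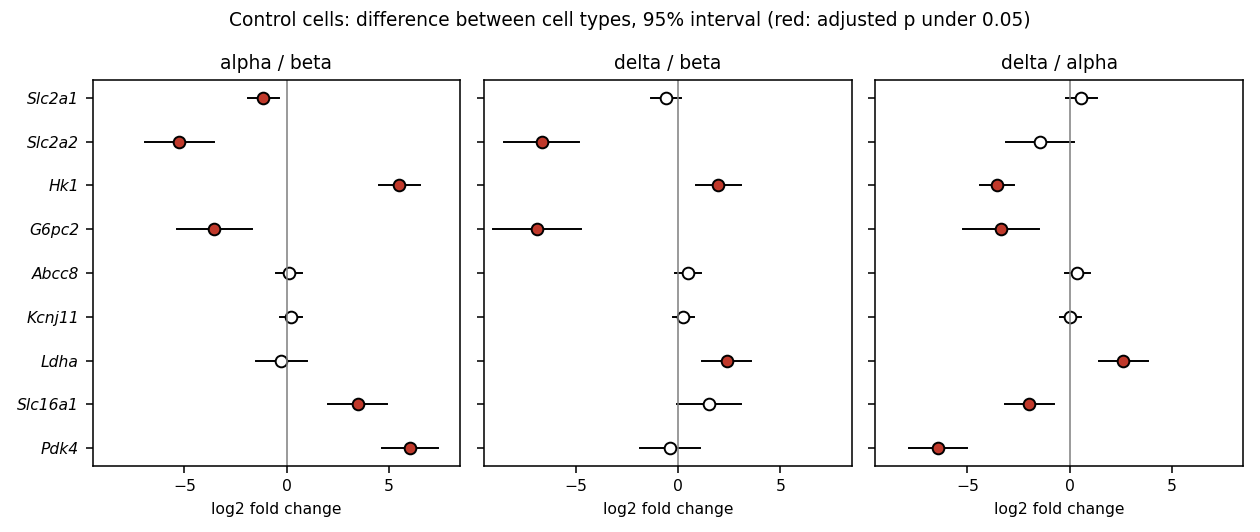
Log2 fold change of edgeR between control cell types for the 9 genes, with the 95% interval as a line and red points for an adjusted p under 0.05. Pdk4 and Hk1 stand to the right of 0 in alpha against beta cells (6.04 and 5.52), Slc2a2 and G6pc2 to the left in both comparisons with beta cells, and Abcc8 and Kcnj11 stay next to 0.

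Transcripts of one cell type in libraries of another bear on the low values. In alpha controls 1, 2 and 3, Ins2 stood at 6.14%, 23.1% and 2.25% of the beta control mean and G6pc2 at 4.33%, 16.8% and 4.75%. Slc2a2 stood at 1.68%, 5.50% and 0.781%, below the insulin genes in each of these libraries, while Slc2a1 stood at 24.1%, 84.5% and 26.6%, above them. In beta controls, Gcg stood at 1.21%, 3.14% and 0.163% of the alpha control mean, Pdk4 at 1.56%, 2.71% and 0.0925% and Hk1 at 2.47%, 3.56% and 0%. In delta controls, Gcg stood at 0.0818%, 0.260% and 2.39%, Pdk4 at 0.348%, 0.329% and 2.78%, but Hk1 at 10.8%, 6.57% and 8.11%. The low values of Slc2a2 in alpha controls thus kept the order of Ins2 over the libraries. Those of Pdk4 and Hk1 in beta controls kept the order of Gcg, Hk1 at 4, 7 and 0 reads. G6pc2 was also highest in alpha control 2, but it did not follow Ins2 from alpha control 1 to 3. The part of transcripts from other cell types in these values was not tested. Slc2a1 in alpha controls and Hk1 in delta controls lay above the share that Ins2 or Gcg held there.

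**Figure D4:**
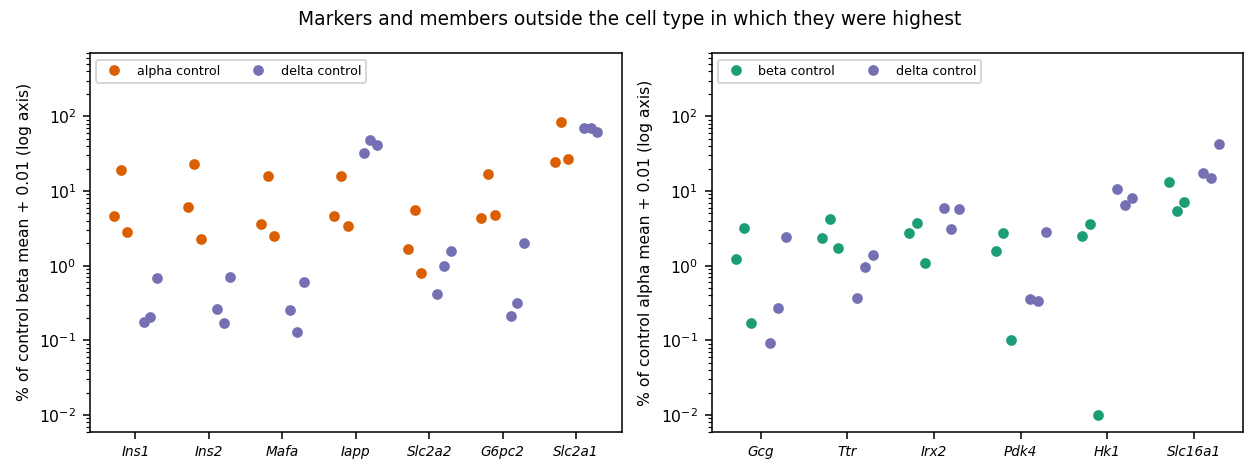
Level in each control library as a percent of the mean in the named cell type, plus 0.01, on a log axis, for markers of beta (left) or alpha cells (right) and for members. G6pc2 in alpha controls (4.33%, 16.8% and 4.75%) runs near Ins1, Ins2 and Mafa, and Pdk4 in delta controls runs near Gcg, while Slc2a1, Hk1 in delta cells and Slc16a1, at 1 or 2 reads in each beta control, lie above the markers.

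IFNγ left the 9 genes without a call in every cell type. None passed the test in alpha, beta or delta cells, where 0.975%, 1.06% and 1.39% of all genes were called, and the number at an unadjusted p under 0.05 was 0, 0 and 1. DESeq2 and limma-voom also called 0 of the 9 in each cell type. In the same libraries Cd274, which encodes PD-L1 and is a known IFNγ target, rose from 15.2 ± 3.58 to 163 ± 49.4 CPM in alpha, from 19.9 ± 3.31 to 336 ± 60.6 CPM in beta and from 17.6 ± 3.35 to 276 ± 103 CPM in delta cells. The smallest adjusted p of a member was 0.253 in alpha, 1.00 in beta and 0.416 in delta cells. No gene of the 9 pathway lists was called in any IFNγ comparison either. The comparison cannot show that the genes were the same: the 95% intervals below give what remains possible.

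In beta cells the transporters had the largest differences. Slc2a2 stood at 124, 155 and 123 CPM with IFNγ against 150, 210 and 625 CPM in controls, a log2 fold change of -1.29 (95% interval -2.71 to 0.12, unadjusted p = 0.0708). The groups overlapped, and without beta control 3 the difference was -0.43. Slc2a1 stood at 23.6, 28.0 and 19.2 CPM with IFNγ, all above the controls at 15.4, 14.2 and 17.5 CPM, with a log2 fold change of 0.59 (95% interval -0.13 to 1.31, unadjusted p = 0.103). It was the 1 member whose groups did not overlap, as did 10.9% of all genes in that comparison. On the 2 dates with both treatments Slc2a1 was higher with IFNγ by 0.61 and 0.97 and Slc2a2 lower by -0.28 and -0.44. Accordingly, the Slc2a1 share of both transporters was 19.1%, 18.5% and 16.2% with IFNγ against 9.59%, 9.26% and 3.19% in controls, without overlap (exact two-sided permutation p = 0.1, the smallest possible). In alpha cells the same share was 91.5%, 75.7% and 60.6% with IFNγ against 46.1%, 50.3% and 53.1%. These TPM shares did not overlap either (p = 0.1 by the same exact test), at 1.73 to 12.2 CPM of Slc2a2. They depend on the length correction, since Slc2a2 had 20 counts and 0.14 TPM in alpha IFNγ 1 but 24 counts and 0.84 TPM in alpha control 3. By counts, Slc2a1 lay below Slc2a2 in alpha IFNγ 3 (96 against 126) and above it in alpha control 3 (39 against 24). The alpha groups thus overlapped in the share by counts, and in the CPM of each gene. The 7 beta cell markers summed to 853, 2889 and 4027 CPM in alpha IFNγ 1, 2 and 3. The part of beta cell transcripts in these alpha shares was not tested. In delta cells the shares overlapped.

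G6pc2 stood at 554, 839 and 827 CPM in beta cells with IFNγ, and only the lowest of these lay outside the control range of 822 to 1365 CPM (log2 fold change -0.50, 95% interval -2.15 to 1.14). Abcc8 at 1063, 982 and 1095 CPM and Kcnj11 at 103, 87.9 and 86.8 CPM overlapped their controls in beta cells, with intervals of -0.47 to 0.77 and -0.42 to 0.64. Among the disallowed genes of beta cells, Hk1 (0.888, 0.948 and 0.350 CPM), Slc16a1 (0.178, 0.237 and 0.117 CPM), Ldha (6.93, 3.79 and 5.01 CPM) and Pdk4 (2.49, 3.56 and 2.33 CPM) all overlapped their controls. Slc16a1 counted 4 reads over the beta IFNγ libraries and 4 over the beta controls, so that its interval ran from -1.89 to 1.81.

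In alpha cells, Abcc8 stood at 624, 946 and 475 CPM with IFNγ against 915, 1007 and 1135 CPM, and Kcnj11 at 59.4, 103 and 52.5 CPM against 88.9, 107 and 102 CPM. For both genes alpha IFNγ 1 and 3 were below all controls and alpha IFNγ 2 was not. The log2 fold changes were -0.58 (95% interval -1.20 to 0.04) and -0.48 (-1.004 to 0.053), with adjusted p = 0.253 and 0.267. Without alpha IFNγ 2 both passed, at -0.89 (adjusted p = 0.0475) and -0.83 (adjusted p = 0.0236). The difference between genes of low and high G+C content was 1.00 and 0.855 in alpha IFNγ 1 and 3 but -0.564 in alpha IFNγ 2 and between -0.755 and -0.475 in alpha controls, and with the offset for G+C content Kcnj11 differed by 0.03. Within the 2 dates shared by both treatments Abcc8 differed by 0.05 and -1.08 and Kcnj11 by 0.21 and -1.03. Pdk4 (140, 208 and 203 CPM) and Hk1 (19.7, 28.1 and 19.4 CPM) remained high in alpha cells with IFNγ, with log2 fold changes of 0.16 (95% interval -0.89 to 1.21) and -0.04 (-0.76 to 0.68). Ldha stood at 5.69, 5.52 and 3.29 CPM.

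In delta cells, Pdk4 was the member with an unadjusted p under 0.05, at 0.139, 0.255 and 0.901 CPM with IFNγ against 0.573, 0.541 and 4.57 CPM (log2 fold change -1.89, 95% interval -3.74 to -0.05, unadjusted p = 0.0448, adjusted p = 0.416). The groups overlapped, and the difference was -0.16 without delta control 3, the library with the most Gcg among delta controls. With the date as a term it was -4.35, a value that rests on delta IFNγ 1 and that same delta control 3. Ldha remained high at 26.7, 17.963 and 18.8 CPM against 16.5, 23.8 and 20.9 CPM (0.05, 95% interval -1.03 to 1.14). Abcc8 (823, 1272 and 710 CPM) and Kcnj11 (71.3, 92.9 and 53.8 CPM) were lower on average by -0.51 and -0.50 without passing the test (adjusted p = 0.523 and 0.456). The libraries with IFNγ again differed from delta controls 1 and 2 in the representation of G+C content, at 0.804, 0.433 and 0.854. No delta control shares a date with a delta IFNγ library, so no difference within a date can be given, and the term for the date rests on libraries of the other cell types.

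**Figure D5:**
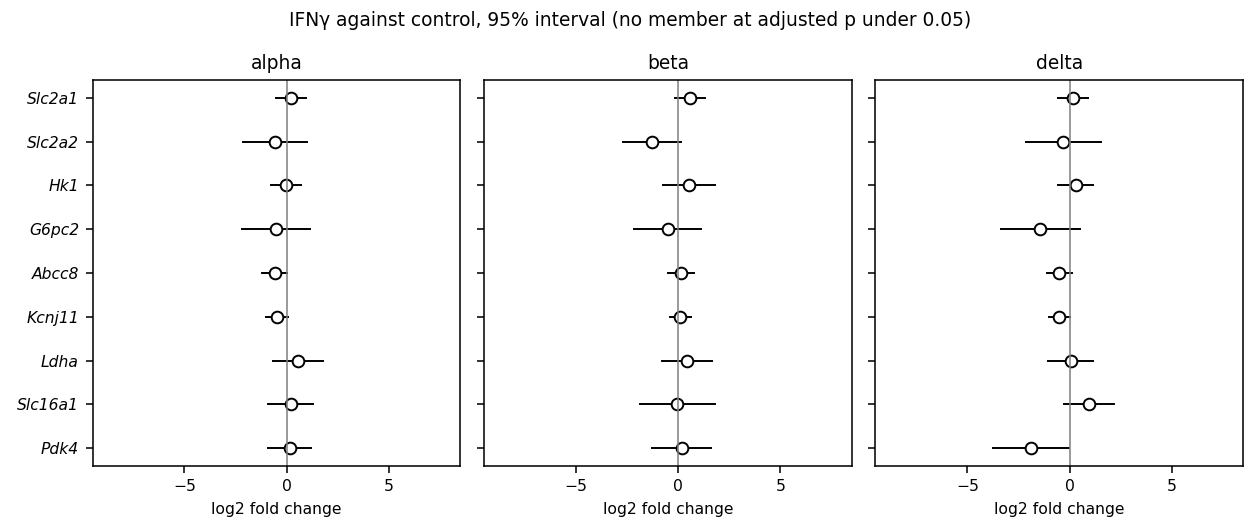
Log2 fold change of edgeR between IFNγ and control for the 9 genes in alpha, beta and delta cells, on the same axis as the comparison of cell types, with the 95% interval as a line. All points are open, since none had an adjusted p under 0.05, and only the interval of Pdk4 in delta cells (-3.74 to -0.05) leaves out 0.

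The response itself was also compared between cell types by an interaction term. By edgeR 0 of the 9 genes and 0 of all genes passed in alpha against beta, delta against beta or delta against alpha cells, with 2305, 822 and 783 genes at an unadjusted p under 0.05. DESeq2 called 4 genes higher and 5 lower, 2 higher and 2 lower, and 1 higher and 4 lower, and limma-voom 1 in all, none of them a member. The member with the largest difference was Pdk4, at -2.07 in delta against beta cells (95% interval -4.43 to 0.29) and -2.05 in delta against alpha cells (-4.18 to 0.08).

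Over the 18 libraries, each member had genes that followed it closely on the log2 CPM scale, given as a description. Pdk4 was nearest to Gcg (r = 0.984) and Higd1a, and G6pc2 to Ins1 (r = 0.982), Gad1 and Sytl4. Hk1 was nearest to Eef1a2 (r = 0.979) and to Irx2, an alpha cell transcription factor (r = 0.974), and Slc2a2 to Atp2a2 (r = 0.974) and Bace2 (r = 0.970). Slc16a1 followed Fgl2 (r = 0.956), Kcnj11 followed Kcnk12 (r = 0.930), Abcc8 followed Fbxo21 (r = 0.924), Slc2a1 followed Entpd3 (r = 0.906) and Ldha followed Dusp6 (r = 0.876). Among the members themselves, Hk1 and Slc16a1 were closest (r = 0.907), followed by the K-ATP pair, Slc2a2 and G6pc2 (r = 0.857) and Hk1 and Pdk4 (r = 0.852), and Slc2a1 ran opposite to Slc16a1 (r = -0.782).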

How the data were processed

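RNA was measured in 18 libraries of sorted islet cells, prepared by the authors from total RNA with a strand-specific kit that depletes rRNA after amplification, and sequenced as 75-base paired ends. The authors aligned reads to GRCm38 with STAR 2.5.2b and tested with DESeq2 1.32.0 after quantification by RSEM (version not given in the sources). The deposited files hold an expected count per gene, TPM, FPKM (not used here) and an effective length. The deposited TPM values were taken as they are. Whether molecular identifiers or strand were used in counting is not given, so reads of overlapping genes cannot be told apart. Symbols, positions and exons came from GENCODE M21, which matched 55227 of 55487 identifiers (99.53%). The methods name a later release. In the lists, Aldoa matched 2 identifiers and Ero1a 0, and both were left out.

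Expected counts were rounded to whole numbers. Genes were kept by filterByExpr (minimum count 10), scaled by the trimmed mean of M values and fitted in edgeR 4.0.16 (R 4.3.3) with a quasi-likelihood model of 6 group means, with Benjamini-Hochberg adjustment over 17338 genes and intervals on 18.3 degrees of freedom. Each SE was derived from the edgeR test, as the absolute log2 fold change divided by the square root of its F. The 95% intervals were built from that SE. Both are approximate, above all at few reads, as for Hk1 and Slc16a1 in beta cells. Log2 CPM used a prior count of 2. The scripts were tested on simulated data. Alternatives were DESeq2 1.42.0, limma-voom (limma 3.58.1), RLE scaling, no low-count filter, the date in the deposited names as a term, the replicate number as a block, an offset for G+C content (lowess span 0.3) and leaving out each library. The study fitted a batch which the labels do not give, and the 9 dates, 5 of them with a single library, stood in for it as an alternative. Leaving out alpha control 2, beta control 3 and delta control 3 together, and the differences within a date, were added after the data were seen. The members and lists were chosen with earlier results of these data known. All 9 members are named. List genes were drawn from those that a rule allows, up to 4 called genes per comparison with the largest change and at least 5 CPM in a compared group, but not all of these are printed, and the choice among them was made after their values were seen. Pdk1 in alpha cells, the other hexokinases and the marker genes are given as context outside that rule. Same-numbered libraries deviated together with a mean r of 0.022 in 45 pairs (14 over 0.1). Some of them share a date and others do not, so the numbers were not taken as a pairing. Libraries that share a date had a mean r of 0.177 in 18 pairs (12 over 0.1), against -0.027 in 117 pairs of other dates, which the model of group means does not take up. The intervals include the spread between libraries.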

Additional observations from a re-analysis of the deposited data

How the results depend on the processing

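Of the values recomputed without leaving out single libraries, 479 kept their direction and their side of the threshold, 26 changed sign, 10 passed the threshold anew, 7 lost it and 6 counts moved. DESeq2, limma-voom and RLE scaling moved no count of members by over 1.5 times. The cause of the changes below was not tested unless given.

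The date as a term leaves delta control 3, the only delta control that shares its date, to stand for the delta controls. No count of calls is given for these comparisons with that term. Signs turned for Abcc8 in alpha against beta cells (-0.041), for Abcc8 (-0.25), Kcnj11 (-0.10) and Pdk4 (0.36) in delta against beta cells, and for Abcc8 (-0.21) and Kcnj11 (-0.22) in delta against alpha cells. Under IFNγ they turned for Abcc8 (-0.007), Kcnj11 (-0.005) and Pdk4 (-0.21) in beta cells and for Slc2a2 (1.15), Abcc8 (0.093), Kcnj11 (0.051) and Slc16a1 (-0.45) in delta cells. With the offset for G+C content, Abcc8 (-0.14) and Kcnj11 (-0.024) turned in alpha against beta cells, Hk1 (0.46), Kcnj11 (0.032), Slc16a1 (-0.24) and Pdk4 (-0.073) under IFNγ in alpha cells, and Kcnj11 (-0.005) in beta cells. Without alpha control 2, beta control 3 and delta control 3, Slc2a2 (0.56) and G6pc2 (0.41) turned under IFNγ in alpha cells, Kcnj11 (-0.026) and Pdk4 (-0.34) in beta cells, and Slc2a2 (0.19) and G6pc2 (0.31) in delta cells.

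Without the low-count filter 32335 genes were fitted and the prior degrees of freedom rose from 6.33 to infinity, so that every gene took the pooled spread. Over the 9 comparisons 25047 gene tests then had no F above 0, against 248 with the filter, so the calls and counts of that fit are doubtful and nothing rests on them. There 1 member passed under IFNγ in beta cells (Slc2a2, -1.31, adjusted p = 5.26e-06), 2 in delta cells (G6pc2, -1.39, and Pdk4, -1.87), and 1 in each comparison of the delta response with that of beta or alpha cells. Slc2a2 passed in delta against alpha cells (-1.43) and Slc16a1 did not (adjusted p = 0.0732). The replicate block changed no call of a member, with Slc2a1 at -1.27 in alpha against beta cells.

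Leaving out 1 library at a time gave 3 to 5 members in delta against alpha cells and 0 to 2 under IFNγ in alpha cells. Signs turned within these ranges: Abcc8 (-0.001 to 0.234) and Ldha (-0.92 to 0.28) in alpha against beta cells, Pdk4 (-2.13 to 0.44) in delta against beta cells and Kcnj11 (-0.074 to 0.208) in delta against alpha cells. Under IFNγ in alpha cells they turned for Slc2a1 (-0.075 to 1.04), Slc2a2 (-1.71 to 0.555), Hk1 (-0.23 to 0.065) and G6pc2 (-1.78 to 0.41), in beta cells for Kcnj11 (-0.026 to 0.274), Slc16a1 (-0.33 to 0.38) and Pdk4 (-0.33 to 1.01), and in delta cells for Slc2a2 (-1.35 to 0.22), G6pc2 (-2.69 to 0.30) and Ldha (-0.15 to 0.175). In percentage points, the Slc2a1 share under IFNγ in delta cells ran from -0.2 to 10.1, the Ldha share from -17.2 to 4.9 in alpha against beta cells and from -3.5 to 18.6 under IFNγ in beta cells, and the Hk1 share from -23.7 to 16.3 in delta against beta cells and from -20.9 to 5.8 under IFNγ in delta cells. The Kcnj11 share ran from -3.6 to 0.4 in alpha against beta cells, and under IFNγ from -3.6 to 0.5 in alpha, -1.7 to 0.0 in beta and -1.5 to 0.8 in delta cells.

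Over all genes, 163 were higher and 6 lower under IFNγ in alpha cells by edgeR, against 403 and 157 by DESeq2 and 990 and 446 without the filter. In beta cells 1 was lower by edgeR, 3 by DESeq2, 27 with the date and 80 without the filter. In delta cells 32 were lower by edgeR and 97 by DESeq2, and 209 higher against 415 without the filter. No count with the date is given there, since that fit rests on delta IFNγ 1 and delta control 3. In delta against alpha cells 1897 were higher and 1520 lower, against 1224 and 839 without the 3 libraries. At 4 reads of Slc16a1 and 11 of Hk1 over the beta controls, depth limits what these genes can show there.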
